A study of Mus musculus with 15 samples.

Results

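The enzymes that build triglyceride in adipocytes were followed through diet-induced obesity and a short return to chow. The group was given by symbol as 10 mouse genes, Gpd1, Gpam, Gpat3, Gpat4, Agpat2, Lpin1, Dgat1, Dgat2, Mogat1 and Mogat2, and each symbol matched 1 Entrez ID among the 35794 in the table of counts. In the libraries used 9 of the 10 had reads and passed the filter on low counts, and Agpat2 was listed at 0 throughout. All C57BL/6 mice were 14 weeks old when perigonadal fat, the depot beside the gonads, was taken whole and frozen. Lean mice (5 libraries) ate chow. Obese mice (5 libraries) were given a 60% high-fat diet from 8 weeks of age. Weight loss mice (4 libraries) ate that diet for 5 weeks and chow for 1 week after it. The submitters call the samples independent without saying that each is a separate mouse, so p-values measure the spread between these samples. As the whole pad was sequenced, fewer adipocytes and less RNA per adipocyte cannot be told apart in any value below.

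Triglyceride is assembled on a glycerol backbone. In the main route of fat, glycerol 3-phosphate, made by the enzyme of Gpd1, receives an acyl chain from a GPAT enzyme (Gpam, Gpat3, Gpat4) and the second from an AGPAT enzyme, a lipin removes the phosphate, and a DGAT enzyme adds the last chain. A side route starts from monoacylglycerol, which MOGAT enzymes acylate directly to diacylglycerol. This route is best known from absorption of dietary fat in the intestine. Dgat2, Mogat1 and Mogat2 belong to a protein family unrelated to Dgat1.

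The 14 libraries held 13924770 to 33807887 counts, and 15208 genes were tested. All 10 adipocyte markers, among them Adipoq and Plin1, had reads in every library, with a summed level of 19094 to 26123 CPM (counts per 1000000 after TMM scaling). Of the 10 markers Pparg and Cebpa, both regulators of adipocyte genes, passed as higher in lean than in obese fat. Pparg stood at 242 CPM in lean against 153 CPM in obese fat (adjusted p = 0.00915), and Cebpa at 542 against 365 CPM (adjusted p = 0.00415). Over all genes tested 3.85% passed in this direction. For obese against lean fat 8 of the 10 had negative log2 values, with a median of -0.38. The 2 positive ones were Adipoq (0.25, adjusted p = 0.227) and Plin4 (0.06, adjusted p = 0.87). For weight loss against obese fat all 10 had positive log2 values, with a median of 0.18, where 47.1% of all genes tested were negative. Macrophage markers summed to 409 to 889 CPM in lean, 869 to 1405 CPM in obese and 549 to 1282 CPM in weight loss libraries. Of these, 6 of 10 passed as higher in obese than in lean fat, against 5.86% of all genes tested. Markers of fat progenitors summed to 689 to 1484 CPM, 1209 to 1906 CPM and 1106 to 2094 CPM in the same order. For obese against lean fat 4 of 7 passed as higher, against the same 5.86%. Further, 1 of 6 endothelial markers passed as lower and 1 of 5 mesothelial markers as higher. None of the 6 lymphocyte or 2 brown adipocyte markers tested passed. Markers of the epididymis, which adjoins this pad in males, reached 8249 CPM in obese replicate 2, 6367 CPM in obese replicate 5, 4158 CPM in obese replicate 4 and 3442 CPM in lean replicate 1. In the other 10 libraries they summed to 548 CPM at most, and in the 4 weight loss libraries to 0.903 to 65.8 CPM. For weight loss against obese fat all 14 epididymal markers tested had negative log2 values, with a median of -9.7. Of these, 13 had an unadjusted p under 0.05, against 14.3% of all genes. No marker of any of these lists passed in that comparison. The part of these cell types in the results was not tested, and the called members are given below also in the 10 libraries poor in epididymal markers, a choice made after seeing the data that leaves 2 obese libraries.

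RefSeq promoter windows (build GRCm38.p6, the assembly of mm10) matched 5 of the 10 members, and the 250 bases before the start are shown for those 3 whose level passed the test in some comparison. Each precedes 1 RefSeq start, which lies inside the gene span given below by 564 bases for Gpat3, 42937 bases for Lpin1 and 81 bases for Gpam. They are written on the gene's strand, 5′ to 3′, and capitals mark matches to the motifs searched on both strands.
Gpat3, chr5:100845979-100846228, plus strand: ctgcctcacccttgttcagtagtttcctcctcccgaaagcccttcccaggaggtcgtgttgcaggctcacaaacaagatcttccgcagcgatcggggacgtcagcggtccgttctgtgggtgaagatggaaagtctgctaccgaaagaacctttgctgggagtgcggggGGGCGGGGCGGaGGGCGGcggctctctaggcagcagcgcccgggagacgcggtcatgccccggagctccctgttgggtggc
Lpin1, chr12:16610967-16611216, minus strand: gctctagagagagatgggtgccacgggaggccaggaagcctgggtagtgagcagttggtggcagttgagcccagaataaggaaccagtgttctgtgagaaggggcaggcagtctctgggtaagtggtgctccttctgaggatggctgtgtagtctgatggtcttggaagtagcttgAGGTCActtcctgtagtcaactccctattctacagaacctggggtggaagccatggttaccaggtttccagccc
Gpam, chr19:55127239-55127488, minus strand, the first of its 2 windows: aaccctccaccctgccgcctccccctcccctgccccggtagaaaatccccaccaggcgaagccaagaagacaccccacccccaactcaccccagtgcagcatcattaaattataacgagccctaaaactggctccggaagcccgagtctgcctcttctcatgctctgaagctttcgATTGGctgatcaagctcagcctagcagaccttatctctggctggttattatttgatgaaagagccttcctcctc
The Gpat3 window held 3 matches to the GC box GGGCGG, 2 of them overlapping, a motif found in 32.7% of all 32851 windows of this length. The Lpin1 window held AGGTCA, a half-site of nuclear receptors found in 14.0% of windows, and the Gpam window held CCAAT on the opposite strand (33.8% of windows). The E-box CACGTG (6.02% of windows), the D-box TTANGTAA (2.06%) and the C/EBP site TTGCGCAA (0.164%) had no match in any of the 6 windows of the members. A match is a description of the letters and not of binding.

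Obese fat had lower levels of 4 genes of the main route and a higher level of Mogat2. Of the 9 members tested, Gpam, Gpat3, Gpat4 and Dgat1 were lower in obese than in lean fat and Mogat2 was higher, where 9.71% of all genes tested passed in either direction (5.86% higher and 3.85% lower). Lean and obese libraries did not overlap for Mogat2 (higher, as for 6.04% of all genes) and for Gpam, Gpat3, Gpat4, Dgat1 and Mogat1 (lower, as for 4.31%). The median log2 fold change was -0.82 over the members and -0.02 over all genes tested. After weight loss Gpat3, Gpat4 and Lpin1 were higher than in obese fat and Mogat2 was lower, 4 of 9 against 1.62% of all genes (0.736% higher and 0.881% lower), with a median of 0.41 over the members and 0.02 over all genes. Weight loss and obese libraries did not overlap for Gpat3, Gpat4 and Lpin1 (higher, as for 3.38% of all genes) and for Dgat2 and Mogat2 (lower, as for 3.27%). Both comparisons use the same obese libraries. Between weight loss and lean fat no member passed edgeR's quasi-likelihood test, against 0.0329% of all genes, nor DESeq2's Wald test or limma-voom. In that comparison 5 of the 9 members had an unadjusted p under 0.05, against 11.4% of all genes, and 8 of 9 had negative values, against 49.5%. In the 10 libraries poor in epididymal markers 2 members passed for obese against lean (Gpat3 and Mogat2) and 1 for weight loss against obese (Mogat2).

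**Figure D1:**
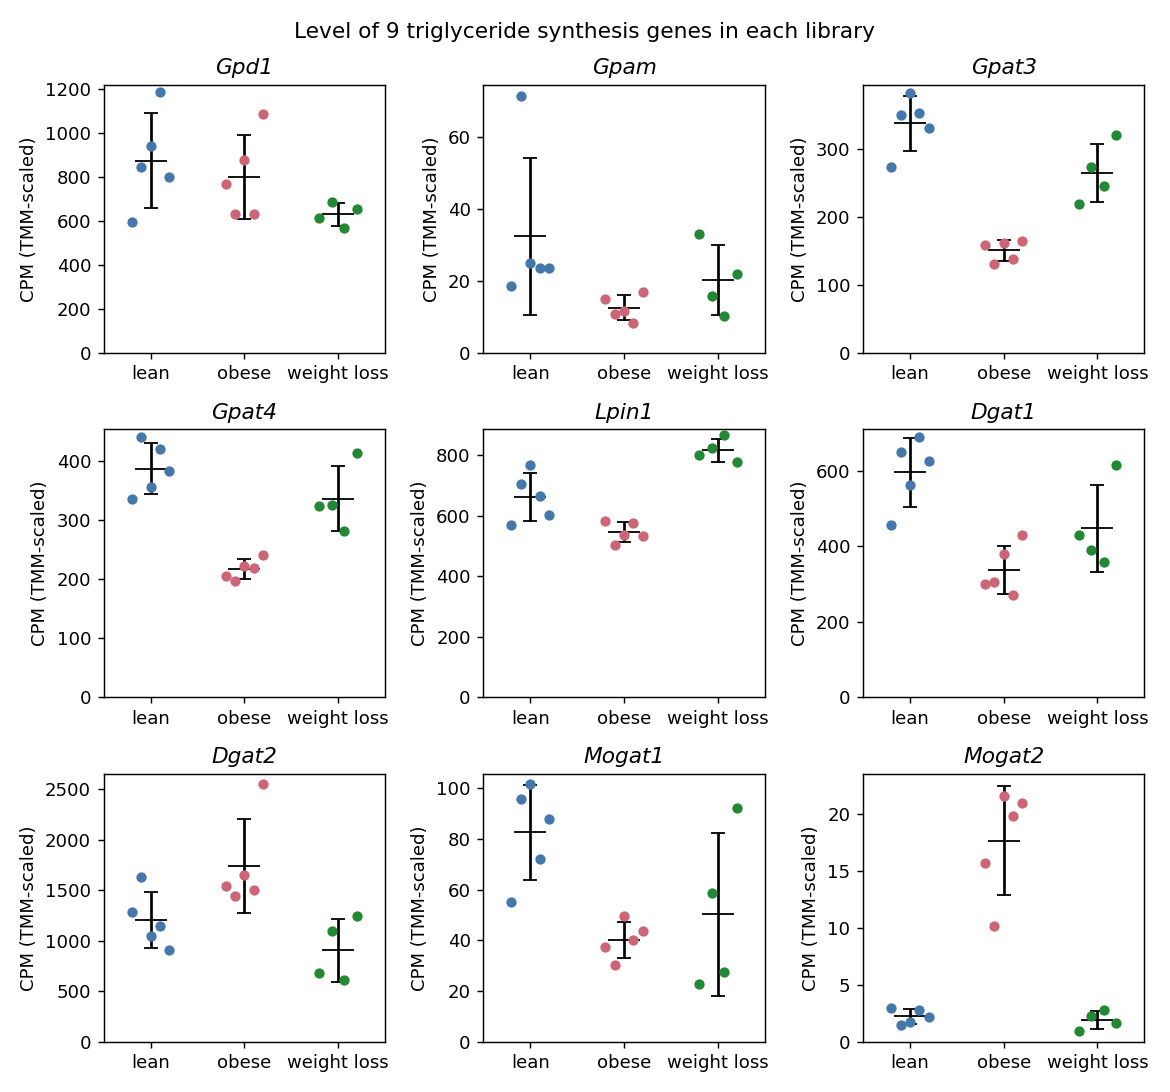
CPM (vertical axis, from 0) of the 9 members with reads in each lean, obese and weight loss library; points are libraries, the horizontal mark is the group mean and bars are SD (n = 5, 5 and 4). Gpat3, Gpat4 and Mogat2 have obese libraries that overlap neither other group.

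**Figure D2:**
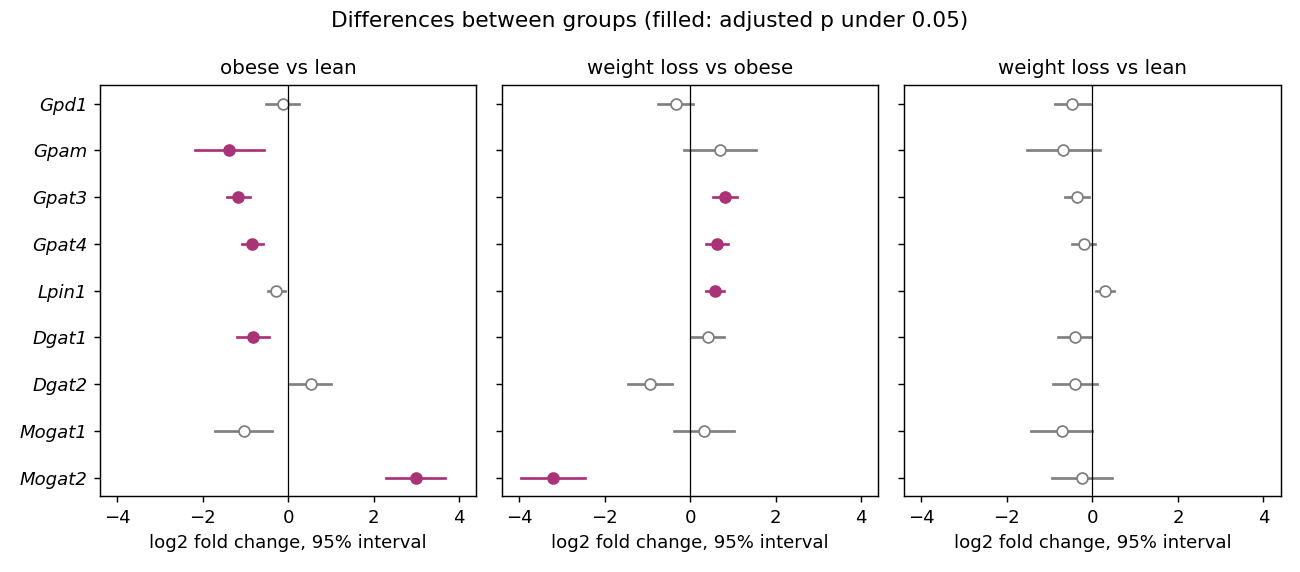
log2 fold change and 95% interval (horizontal axis) of each member in the 3 comparisons, with filled points for an adjusted p under 0.05. Mogat2 lies at 2.98 for obese against lean and on the other side of 0 for weight loss against obese, and no point is filled for weight loss against lean.

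Gpd1 (Entrez ID 14555, chr15:99717587-99725014) encodes the cytosolic glycerol-3-phosphate dehydrogenase, which supplies the backbone. Its level ran from 596 to 1189.5 CPM in lean, 630.3 to 1088.5 CPM in obese and 568 to 685 CPM in weight loss libraries, so the groups overlapped. Means with their SD were 875 ± 216 CPM for the 5 lean, 799.5 ± 192 CPM for the 5 obese and 631 ± 51 CPM for the 4 weight loss libraries. The log2 difference of obese from lean fat was -0.13 ± 0.18 (standard error; 95% interval -0.51 to 0.25, adjusted p = 0.715). For weight loss it was -0.34 ± 0.19 against obese fat (adjusted p = 0.463) and -0.47 ± 0.19 against lean fat (adjusted p = 0.377).

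Gpat3 (Entrez ID 231510, chr5:100845665-100899102) encodes a GPAT of the endoplasmic reticulum that is abundant in fat. Lean replicates 1 to 5 held 274, 351, 383, 353 and 332 CPM, obese replicates 1 to 5 held 159.5, 131, 162, 138 and 164 CPM, and weight loss replicates 1 to 4 held 219.9, 275, 246 and 321 CPM. Every obese library was below every lean and every weight loss library, and weight loss libraries overlapped the lean range. Gpat3 was 2.24-fold lower in obese than in lean fat, a log2 change of -1.17 ± 0.12 (adjusted p = 7.9e-05), and rose by 0.82 ± 0.13 after weight loss (adjusted p = 0.00424). Against lean fat the weight loss level differed by -0.35 ± 0.13 (95% interval -0.63 to -0.07, adjusted p = 0.327). In the 10 libraries poor in epididymal markers the change in obesity was -1.14 (adjusted p = 0.0151) and the rise after weight loss 0.72 (adjusted p = 0.232), and the latter was 0.73 (adjusted p = 0.138) with the level of those markers as a covariate. Over all alternatives other than single libraries the adjusted p of the rise ran from 1.3e-06 to 0.232.

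Gpat4 (Entrez ID 102247, chr8:23171265-23208453), the closest relative of Gpat3 among the GPAT genes, moved in the same directions. Its level was 337, 442, 356, 421 and 384 CPM in lean replicates 1 to 5, 206, 197, 223, 219 and 241 CPM in obese replicates 1 to 5, and 325, 326, 282 and 414 CPM in weight loss replicates 1 to 4. The obese libraries were again below all others. Gpat4 was 1.79-fold lower in obese than in lean fat (log2 -0.84 ± 0.12, adjusted p = 0.000588) and rose by 0.63 ± 0.12 after weight loss (adjusted p = 0.0148). The rise had an adjusted p of 0.0562 without obese replicate 3 and 0.0648 without weight loss replicate 4. In the 10 libraries poor in epididymal markers the values were -0.90 (adjusted p = 0.0506) for obesity and 0.65 (adjusted p = 0.388) for weight loss, and with those markers as a covariate the rise was 0.69 (adjusted p = 0.154). Weight loss and lean fat differed by -0.20 ± 0.12 (95% interval -0.46 to 0.06, adjusted p = 0.547).

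Gpam (Entrez ID 14732, chr19:55067635-55127319) encodes the mitochondrial GPAT, and its counts here were low, 158 to 1004 per library. Lean replicates 1 to 5 held 18.5, 71.2, 24.8, 23.5 and 23.5 CPM, obese replicates 1 to 5 held 14.8, 10.7, 11.4, 8.27 and 17.0 CPM, and weight loss replicates 1 to 4 held 32.9, 15.7, 10.3 and 21.9 CPM. Lean replicate 2 stood far above the other lean libraries, every lean library lay above every obese one, and weight loss libraries overlapped both groups. Gpam was lower in obese than in lean fat by a log2 value of -1.37 ± 0.38 (adjusted p = 0.0353). That call was lost without lean replicate 2 (-0.87, adjusted p = 0.0842) or without obese replicate 1 (-1.44, adjusted p = 0.0561), 2 (-1.32, adjusted p = 0.0823), 3 (-1.38, adjusted p = 0.0764) or 4 (-1.26, adjusted p = 0.0836). It was also lost in the 10 libraries poor in epididymal markers (-1.44, adjusted p = 0.279), with those markers as a covariate (-1.10, adjusted p = 0.147), in limma-voom (-1.18, adjusted p = 0.0547) and with the replicate number as a block (-1.30, adjusted p = 0.0634). After weight loss Gpam differed from obese fat by 0.70 ± 0.40 (adjusted p = 0.47) and from lean fat by -0.68 ± 0.40 (adjusted p = 0.544).

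Agpat2 (Entrez ID 67512, chr2:26593057-26604417) encodes the AGPAT enzyme whose loss causes generalized lipodystrophy. The deposited table lists it at 0 in all 14 libraries. The same was true of 3081 of 21034 protein-coding genes, among them Cct6a, a subunit of the CCT chaperonin that all cells need, while each of the other 7 subunits had at least 1393 counts in every library. Cct6a was looked up after the 0 of Agpat2 was seen. No level of Agpat2 can therefore be given, and the AGPAT step of the main route is not described here beyond its relatives.

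Lpin1 (Entrez ID 14245, chr12:16535669-16653903) encodes lipin 1, the main phosphatidate phosphatase of fat, which also acts as a transcriptional coactivator. Its level was 571, 706, 769.8, 667 and 604 CPM in lean replicates 1 to 5, 582, 504, 538, 576 and 532 CPM in obese replicates 1 to 5, and 802, 824, 868 and 778 CPM in weight loss replicates 1 to 4. Weight loss libraries lay above all libraries of both other groups, and lean and obese libraries overlapped. Lpin1 rose from obesity to weight loss by a log2 value of 0.58 ± 0.10 (adjusted p = 0.00797). Against lean fat it was higher by 0.30 ± 0.10 (95% interval 0.09 to 0.52), which did not pass over all genes (adjusted p = 0.276). Among the members Lpin1 alone had weight loss libraries clear of the lean range, all above it, as had 1.58% of all genes tested (2.29% with either direction). Between obese and lean fat the value was -0.28 ± 0.10 (adjusted p = 0.0768), which passed without lean replicate 1 (-0.33, adjusted p = 0.047) and in DESeq2 (-0.29, adjusted p = 0.0204). The rise after weight loss had a log2 value of 0.55 (adjusted p = 0.388) in the 10 libraries poor in epididymal markers and 0.44 (adjusted p = 0.33) with the covariate.

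Dgat1 (Entrez ID 13350, chr15:76502012-76512021) and Dgat2 (Entrez ID 67800, chr7:99153663-99182713) encode the DGAT enzymes, which catalyse the last step. Dgat1 stood at 456, 650.5, 562, 689 and 625 CPM in lean replicates 1 to 5, 301, 305, 379, 271 and 428 CPM in obese replicates 1 to 5, and 429.6, 390.0, 357 and 615 CPM in weight loss replicates 1 to 4. All obese libraries were below all lean ones, and weight loss libraries overlapped both groups. Dgat1 was 1.77-fold lower in obese than in lean fat (log2 -0.82 ± 0.17, adjusted p = 0.00837), and the value was -0.89 (adjusted p = 0.106) in the 10 libraries poor in epididymal markers. After weight loss it differed from obese fat by 0.41 ± 0.18 (adjusted p = 0.31) and from lean fat by -0.41 ± 0.18 (adjusted p = 0.411).

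Dgat2, the more abundant of the pair, did not pass the test in any comparison. It stood at 1289.8, 1635, 1051, 1145 and 908 CPM in lean replicates 1 to 5, 1544, 1445, 1656, 1507 and 2556 CPM in obese replicates 1 to 5, and 678, 1094, 611 and 1244 CPM in weight loss replicates 1 to 4. Weight loss libraries were all below the obese ones, while lean libraries overlapped both groups. The log2 value was 0.53 ± 0.22 for obese against lean fat (95% interval 0.05 to 1.01, adjusted p = 0.155) and -0.94 ± 0.24 for weight loss against obese fat (95% interval -1.46 to -0.42, adjusted p = 0.0682). Without obese replicate 5 the former was 0.32 (adjusted p = 0.407). The latter passed in DESeq2 (-0.95, adjusted p = 0.00421) and in limma-voom (-0.97, adjusted p = 0.0435), and was -0.82 (adjusted p = 0.697) in the 10 libraries poor in epididymal markers. Weight loss and lean fat differed by -0.41 ± 0.24 (adjusted p = 0.538).

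The balance of both DGAT genes within a library needs no scaling between libraries. Per kilobase of exon, the ratio of Dgat2 to Dgat1 was 2.81, 2.49, 1.85, 1.65 and 1.44 in lean replicates 1 to 5, 5.09, 4.69, 4.33, 5.50 and 5.91 in obese replicates 1 to 5, and 1.56, 2.78, 1.70 and 2.01 in weight loss replicates 1 to 4. Every obese library was above every other library, and the weight loss and lean ranges overlapped. Obese replicates 1 and 3, which were poor in epididymal markers, had ratios of 5.09 and 4.33. Means with their SD were 2.05 ± 0.58 for the 5 lean, 5.11 ± 0.63 for the 5 obese and 2.01 ± 0.55 for the 4 weight loss libraries, values given as a description with no test.

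Mogat2 (Entrez ID 233549, chr7:99219084-99238611) is the next gene to Dgat2 on the chromosome, 36370 bases away with no RefSeq gene between them. Its level was 2.99, 1.49, 1.76, 2.75 and 2.13 CPM in lean replicates 1 to 5, 15.7, 10.2, 21.6, 19.8 and 21.0 CPM in obese replicates 1 to 5, and 0.903, 2.29, 2.76 and 1.60 CPM in weight loss replicates 1 to 4. These levels rest on 16 to 67 counts in lean and weight loss libraries and 320 to 595 counts in obese ones. The obese libraries stood apart from all others, and the lean and weight loss ranges overlapped. Mogat2 was 7.90-fold higher in obese than in lean fat (log2 2.98 ± 0.32, adjusted p = 7.9e-05) and 9.29-fold lower after weight loss than in obese fat (log2 -3.21 ± 0.35, adjusted p = 0.000664). Weight loss and lean fat differed by -0.23 ± 0.33 (95% interval -0.94 to 0.47, adjusted p = 0.82). In the 10 libraries poor in epididymal markers the values were 3.20 (adjusted p = 0.00847) and -3.29 (adjusted p = 0.0188).

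Mogat1 (Entrez ID 68393, chr1:78511060-78606964), the other monoacylglycerol acyltransferase gene measured, lay lower in every obese than in every lean library. It stood at 55.3, 95.8, 101.4, 72.1 and 87.95 CPM in lean replicates 1 to 5, 37.4, 30.1, 49.6, 40.1 and 43.5 CPM in obese replicates 1 to 5, and 22.7, 58.7, 27.5 and 92.0 CPM in weight loss replicates 1 to 4. Of the weight loss libraries, 2 lay within the lean range and 2 below every obese library. The log2 value for obese against lean fat was -1.04 ± 0.31 (95% interval -1.71 to -0.37), just short of the threshold (adjusted p = 0.0504). It passed in 8 of the 12 alternatives other than single libraries, counting the threshold of 0.1. Among these were DESeq2 (adjusted p = 0.00837), limma-voom (adjusted p = 0.0461) and only the groups compared (adjusted p = 0.00422). It did not pass without a filter on low counts or with the replicate block. Nor did it pass in the 10 libraries poor in epididymal markers or with those markers as a covariate. Over all 12 the adjusted p ran from 0.00422 to 0.372. The value also passed without lean replicate 1 (adjusted p = 0.0392), weight loss replicate 1 (adjusted p = 0.0261), 3 (adjusted p = 0.0404) or 4 (adjusted p = 0.0172). Weight loss differed from obese fat by 0.32 ± 0.33 (adjusted p = 0.738), and by -0.15 without weight loss replicate 4, and from lean fat by -0.72 ± 0.33 (adjusted p = 0.436).

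Per kilobase of exon, Mogat2 stood at 0.0254 ± 0.014 of the level of Mogat1 in lean fat (SD, n = 5), 0.368 ± 0.053 in obese fat (SD, n = 5) and 0.0417 ± 0.030 after weight loss (SD, n = 4). The obese ratios ran from 0.286 to 0.420 and all others from 0.0132 to 0.0852, so Mogat1 remained the more abundant of the pair in every library. In weight loss replicate 3 the ratio was 0.0852 and in weight loss replicate 4 it was 0.0148. Per kilobase the GPAT genes kept one order throughout, Gpat3 above Gpat4 above Gpam. In CPM, without scaling by length, the group means of Gpat4 were above those of Gpat3. They were 388 against 338.5 CPM in lean, 217 against 151 CPM in obese and 337 against 265 CPM in weight loss fat. Gpat3 made up 60.6% ± 3.3 of their summed level per kilobase in lean fat (SD, n = 5), 55.6% ± 1.8 in obese fat (SD, n = 5) and 58.6% ± 3.4 after weight loss (SD, n = 4). Gpat4 made up 36.5% ± 2.5, 42.0% ± 2.1 and 39.0% ± 2.1, and Gpam 2.95% ± 1.7, 2.39% ± 0.53 and 2.38% ± 1.3, in the same order. For Gpat4 the share was above the lean range in all 5 obese libraries, 39.2% to 44.7% against 32.1% to 38.4%.

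**Figure D3:**
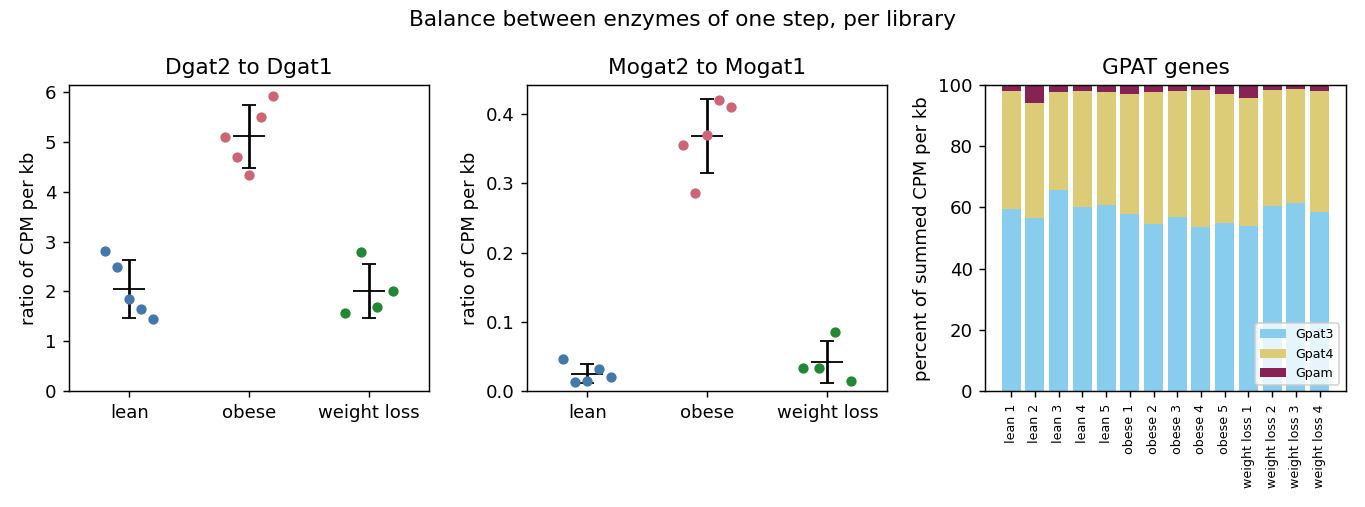
Ratio of Dgat2 to Dgat1 and of Mogat2 to Mogat1 in CPM per kilobase of exon (left and middle, vertical axes from 0, points are libraries, mark and bars are mean and SD), and the share of Gpat3, Gpat4 and Gpam in their summed CPM per kilobase in each library (right, stacked to 100 percent). Obese libraries have Dgat2 to Dgat1 ratios of 4.33 to 5.91, above all lean and weight loss libraries.

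Levels of different genes were compared per kilobase of exon. In lean fat the order was Dgat2 (391 ± 89.9 CPM per kilobase), Gpd1 (296 ± 73), Dgat1 (195 ± 30), Gpat3 (96.7 ± 12), Lpin1 (68.7 ± 8.2), Gpat4 (58.1 ± 6.6), Mogat1 (52.9 ± 12), Gpam (4.85 ± 3.3) and Mogat2 (1.21 ± 0.35). Neighbours in this order had overlapping ranges except Dgat1 and Gpat3, Mogat1 and Gpam, and Gpam and Mogat2. Within single libraries Gpd1 was above Dgat1, Gpat3 above Lpin1 and Lpin1 above Gpat4 in 5 of 5 lean libraries. Dgat2 was above Gpd1 and Gpat4 above Mogat1 in 4 of 5. With the length of the longest transcript instead, a setting chosen after seeing the data, 2 pairs of lean means change places: Dgat1 (316 ± 48) stood above Gpd1 (306 ± 76) and Lpin1 (119 ± 14) above Gpat3 (111 ± 13), each with overlapping ranges. In obese fat Lpin1 (56.5 ± 3.3 CPM per kilobase) stood above Gpat3 (43.1 ± 4.5) and Mogat2 (9.62 ± 2.6) above Gpam (1.87 ± 0.52), both without overlap of their ranges under either length. After weight loss Gpam (3.03 ± 1.5 CPM per kilobase) was again above Mogat2 (1.03 ± 0.44), while the ranges of Lpin1 (84.6 ± 4.0) and Gpat3 (75.8 ± 12) overlapped, though not by the longest transcript. The summed level of the 9 members with reads was 1164 ± 148 CPM per kilobase in lean fat (SD, n = 5), 1114 ± 239 in obese fat (SD, n = 5) and 901 ± 180 after weight loss (SD, n = 4). The ranges overlapped, and Dgat2 was the largest term of this sum, which lacks Agpat2.

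**Figure D4:**
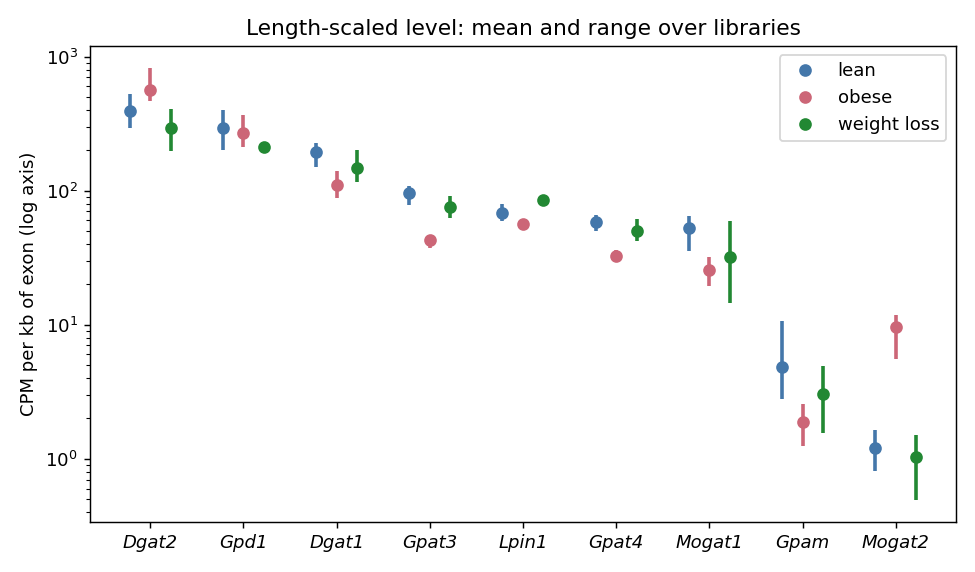
CPM per kilobase of exon (log axis) of the 9 members with reads, ordered by their lean level; points are group means and lines span the lowest to the highest library of each group. Dgat2 is the highest in each group, and Mogat2 passes Gpam in obese fat alone.

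The other genes of the pathway were 23 genes of backbone supply, acylation, phosphatidate dephosphorylation and fatty acid activation, of which 21 were tested. For obese against lean fat 1 of the 21 was higher and 2 were lower, where 5.86% and 3.85% of all genes were. The median log2 value was -0.05 against -0.02 over all genes. Acsl1, the main acyl-CoA synthetase of adipocytes, activates fatty acids. Its level fell from 1310 ± 219 to 949 ± 64 CPM (log2 -0.46 ± 0.12, adjusted p = 0.0256). Its call was lost without lean replicate 2 (adjusted p = 0.0582) or 4 (adjusted p = 0.0538) and without obese replicate 1 (adjusted p = 0.0513), 2 (adjusted p = 0.0681) or 4 (adjusted p = 0.0665). Gpd2, the mitochondrial enzyme that oxidizes glycerol 3-phosphate, fell from 57.4 ± 16 to 33.1 ± 6.4 CPM (log2 -0.80 ± 0.19, adjusted p = 0.0161). Agpat4, a relative of Agpat2, was higher, with 13.9 ± 3.1 CPM for lean against 21.8 ± 3.7 CPM for obese libraries (log2 0.64 ± 0.19, adjusted p = 0.049). Leaving out any one of 10 of the 14 libraries ended the call of Agpat4, with adjusted p values from 0.0523 to 0.109. None of the 3 passed in the 10 libraries poor in epididymal markers, with log2 values of -0.48 for Acsl1, -0.68 for Gpd2 and 0.93 for Agpat4, or with those markers as a covariate, with -0.40, -0.67 and 0.67.

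No gene of this list passed edgeR's test for weight loss against obese fat, where 4 had an unadjusted p under 0.05 (19.0%, against 14.3% of all genes), or for weight loss against lean fat, where 5 did (23.8%, against 11.4%). None passed DESeq2 or limma-voom there. Pck1, the gene of the enzyme that starts glyceroneogenesis, had group means of 739.9 (lean), 744 (obese) and 1069 CPM (weight loss), without passing (adjusted p = 0.264 against obese fat). Weight loss replicates 1 to 3 held 1183, 1199 and 1264 CPM. Replicate 4 held 629 CPM, below every lean library (636 CPM at least). Pck1 was singled out after its values were seen. Cnep1r1, a regulatory subunit of the phosphatase that dephosphorylates lipin, was listed at 0 in every library, as Agpat2 was. Of 17 enzymes that draw on phosphatidate, diacylglycerol or monoacylglycerol for other products, 16 were tested and none passed edgeR's test in any comparison. Their unadjusted p was under 0.05 for 2, 2 and 1 genes in the order obese against lean, weight loss against obese and weight loss against lean, which is 12.5%, 12.5% and 6.25% of the list against 24.8%, 14.3% and 11.4% of all genes. DESeq2 called 1, 1 and none, and limma-voom called none.

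The genes whose log2 CPM followed 3 of the members most closely over the 14 libraries were taken by Pearson correlation among 10010 genes at a mean log2 CPM of 3 or more. For Mogat2 they were Snx7 (r = 0.969), a sorting nexin, Top2a (r = 0.964), a topoisomerase of dividing cells, and Tuba1a (r = 0.949), an alpha-tubulin. Tuba1a stood at 242 CPM in lean, 1078 CPM in obese and 260.2 CPM in weight loss fat. For Gpat3 they were Dennd2d (r = 0.977), Slc5a6 (r = 0.971), a transporter of biotin and pantothenate, and Ciart (r = 0.969), a repressor of the circadian clock. Slc5a6 stood at 155 CPM in lean, 42.8 CPM in obese and 112 CPM in weight loss fat. For Lpin1 they were Fmo5 (r = 0.932), a monooxygenase, Hsd3b7 (r = 0.915), an enzyme of bile acid synthesis, and Gpt2 (r = 0.903), a mitochondrial alanine transaminase. Gpt2 stood at 378 CPM in lean, 255 CPM in obese and 409 CPM in weight loss fat. All of these correlations span the same 3 groups and libraries, and they describe likeness only.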

How the data were processed

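The authors deposited 1 table of raw expected counts (estimated, not normalized), with a column per library and a line per Entrez ID, and 34.7% of its values were not whole (over 1e-06 from a whole number). Reads were mapped to mm10 per the labels. Aligner, counter, annotation and the rule for shared reads: not given in the sources used here. All values of the 9 members with reads were fractional except for Mogat2, with 6 of 14. Lines of 1 ID were summed and counts rounded. Symbols came from RefSeq (32919 IDs) or GENCODE M21 (24), and 2851 IDs had none. Weight loss replicate 5 (230 counts) fell under a minimum of 1000000 and was left out.

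Genes were filtered with filterByExpr by group, scaled by TMM and fitted in 1 model of 3 groups with edgeR 4.0.16 in R 4.3.3 (glmQLFit, glmQLFTest, two-sided). Every adjusted p is from edgeR's quasi-likelihood test at 0.05, unless DESeq2 1.42.0 or limma 3.58.1 is named. Benjamini-Hochberg adjustment ran over the 15208 genes of the main fit, and in each alternative over the genes that fit tested. Standard errors are the size of a log2 value divided by the root of its F statistic. Levels per kilobase use the union of GENCODE M21 exons.

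The members and lists were chosen with earlier results of these data known. All 10 members are named, with every gene of the other lists past the threshold and the 3 genes most alike for Mogat2, Gpat3 and Lpin1. Alternatives were other scalings, filters and tests, only the groups compared, a replicate block and each library left out; the epididymal alternatives, legacy=FALSE, a threshold of 0.1 and levels by longest transcript were added after seeing the data.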

Additional observations from a re-analysis of the deposited data

Results flagged for a closer look

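In 42 sets of library values from single groups (the level of each member, the enzyme ratios and the GPAT shares), 4 held a library separated from the rest of its group by more than Dixon's 95% limit, where chance gives about 1 in 20. Dgat2 reached 2556 CPM in obese replicate 5, against 1656 CPM in the next obese library. Obese replicate 5 also had the highest summed adipocyte markers of the obese group, at 24520 CPM, and held 6367 CPM of epididymal markers. Gpam reached 71.2 CPM in lean replicate 2, against 24.8 CPM in the next lean library. In the same library Gpam made up 6.04% of the GPAT level per kilobase, against 2.26% in the next lean library. Gpat4 made up 32.1% of the GPAT level per kilobase in lean replicate 3, against 36.9% in the next lowest lean library.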

How the results depend on the processing

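Over 26 alternatives the 27 member comparisons gave 702 values, of which 664 kept their direction and side of the threshold, 19 lost a call, 18 gained one and 1 changed sign (Mogat1 for weight loss against obese fat, -0.15 without weight loss replicate 4 and up to 0.56 without weight loss replicate 1). A call could be lost only for the 5 members called for obese against lean and the 4 called for weight loss against obese fat. Gpam for obese against lean fat lost its call without any one of 5 of the 14 libraries and in 4 of the 12 other alternatives. Called members numbered 4 to 7 for obese against lean fat, 3 to 4 for weight loss against obese fat and 0 for weight loss against lean fat when single libraries were left out. Without the 4 libraries rich in epididymal markers, which left 4 lean and 2 obese libraries, they numbered 2, 1 and 0, and with those markers as a covariate 4, 1 and 0. Called genes of the pathway list for obese against lean fat numbered 3, but 5 in DESeq2, 5 with the replicate block, 5 at a threshold of 0.1, 0 without the libraries rich in epididymal markers, 0 with the covariate, and 1 to 4 when single libraries were left out. The cause of these shifts was not tested. All genes called for obese against lean fat numbered 1477, against 2260 in DESeq2 and 125 without those 4 libraries, and for weight loss against obese fat 246, against 691 in DESeq2, 20 without those libraries and 31 with the covariate. For weight loss against lean fat they numbered 5, against 261 in DESeq2 and 0 to 130 when single libraries were left out. By longest transcript the obese ratios were 4.30 for Dgat2 to Dgat1 and 0.299 for Mogat2 to Mogat1. The labels do not say that a replicate number pairs samples. Deviations of same-numbered libraries correlated from -0.553 to 0.399 and above 0.1 in 4 of 13 pairs. Of the 14 libraries, 3 correlated best with their own number. As any large difference between libraries enters these values, they cannot exclude a shared batch, cage or litter. The replicate block gave 4 called members for obese against lean fat and 4 for weight loss against obese fat. Mogat2 rests on as few as 16 counts in a library, which limits its precision outside obese fat.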

Other observations

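Some libraries were at the edge of their group for many members at once. Lean replicate 1 had the lowest lean level of 7 of the 9 members with reads (all but Dgat2 and Mogat2). Its summed adipocyte markers were the lowest of the lean group, at 19094 CPM, and its epididymal markers the highest, at 3442 CPM. Obese replicate 2 had the lowest obese level of 6 of the 9 members and obese replicate 5 the highest of 6. Adipocyte markers summed to 19209 CPM in obese replicate 2 and 24520 CPM in obese replicate 5, and epididymal markers to 8249 and 6367 CPM. Weight loss replicate 4 had the highest weight loss level of Gpat3, Gpat4, Dgat1, Dgat2 and Mogat1 but the lowest of Lpin1. Its adipocyte markers summed to 25598 CPM and its epididymal markers to 65.8 CPM. The part of either kind of marker in these patterns was not tested. Weight loss replicate 5, which entered no comparison, held 1 count on these genes, on Lpin1.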
